A study of Mus musculus with 6 samples.

Results

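The transcripts of 49 genes of the actin cytoskeleton and of focal adhesions were followed in cultured mouse pancreatic acini. The genes were named by symbol and found by exact match among the 56953 genes of the deposited count table, where all 49 were present. Of these, 48 had enough reads to be tested, among 14738 genes tested in all. The remaining gene, Cnn1, had 1 to 3 counts in each library. The samples were 6 bulk RNA-seq libraries of acini embedded in Matrigel and kept for 3 days under conditions of acinar-to-ductal metaplasia (ADM), a change of state by which acini in culture stop secreting enzymes and open into ducts. Wild-type acini (WT, Dkk3+/+), acini of untreated Dkk3-null mice (DD) and DD acini treated with recombinant soluble DKK3 (DD+rDKK3) gave 2 libraries each, all in medium that held serum, trypsin inhibitor and dexamethasone. The comparison of DD with WT asks what loss of the secreted glycoprotein DKK3 does to these genes, and that of DD+rDKK3 with DD asks what the added protein does.

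The knockout allele was ubiquitous, so that any stromal cells in a DD culture lacked DKK3 as well, and it replaced exon 2 with the signal sequence for secretion, whereas a second transcript starts downstream in intron 2. Dkk3 itself had 10 and 1 counts for WT, 11 and 9 counts for DD and 5 and 5 counts for DD+rDKK3, and counts summed over a whole gene cannot check a replaced exon. The labelled ages were 10 and 11 weeks in WT, 12 and 13 weeks in DD and 14 and 15 weeks in DD+rDKK3, so age and group cannot be told apart. WT 2 was labelled female and the other libraries male. The labels do not say whether the libraries of a group came from separate animals, and p-values then measure only the spread between these libraries, which may be technical. Library totals were between 12018473 and 19750401 counts, and 44 of the 49 genes had at least 100 counts in every library. Acinar markers were abundant in every library, with a summed level of 138200 and 103100 CPM (counts normalised to depth, scaled by the trimmed mean of M values) for WT, 93530 and 79290 CPM for DD and 105600 and 84950 CPM for DD+rDKK3, which fits the label of the cells. The 15 acinar markers had a median log2 fold change of -0.39 in DD against WT (4 of 15 above 0) and of 0.20 in DD+rDKK3 against DD (15 of 15 above 0), and their part in the values of the 49 genes was not tested. The 14 fibroblast and stellate markers summed to 163 and 78.9 CPM in WT, 111 and 1023 CPM in DD and 220 and 1147 CPM in DD+rDKK3, so that DD 2 and DD+rDKK3 2 stood apart from the other 4 libraries. In such bulk samples, fewer cells of a type and less RNA per cell cannot be told apart.

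Actin monomers assemble into filaments whose branching is seeded by the Arp2/3 complex, whose ends are held by capping protein and whose monomers are recycled by cofilin and profilin. Cross-linkers bundle the filaments, tropomyosins and calponins line them, and myosin II pulls on them. At focal adhesions, talin and vinculin tie the filaments to integrins and hence to the matrix, while ezrin, radixin and moesin (ERM proteins) tie them to the plasma membrane. Acini keep a dense actin web and ezrin-bearing microvilli under the lumen, where zymogen granules fuse, and this web is remodelled when acini open into ducts. Many of these genes are known targets of serum response factor (SRF) and its actin-sensing cofactors, the MRTF proteins, which bind a short promoter element called the CArG box.

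This element is what several of the promoters shared. RefSeq promoters of GRCm38.p6, which span 250 bases before to 50 bases after a transcription start, were found for 45 of the 49 genes (50 promoters). A CArG box stood in 7 of these 50 promoters (14.0%) and in 535 of all 32851 promoters of the same length (1.63%), on either strand. The genes were Actg1, Cnn2, Lima1, Myl6, Myl9, Vcl and Vil1. The AP-1 motif TGANTCA was found in 10.0% of the promoters of these genes and in 7.81% of all promoters, and the TEAD motif GGAATG in 20% and 14.7%. AP-1 matches were in the promoters of Actn4, Cald1, Ezr, Myl12a and Zyx. The AP-1, TEAD and CArG motifs share no full match, and all were searched on both strands. The stretches around the CArG box are shown for 4 genes, whose log2 fold changes between DD and WT included the lowest and the highest of the 7. The boxes of Lima1 and Vcl, not shown, have the same letters as that of Cnn2. The sequences run 5′ to 3′ along the strand of the gene, with the CArG box in capitals.
Vil1 (chr1:74409286-74409345, plus strand): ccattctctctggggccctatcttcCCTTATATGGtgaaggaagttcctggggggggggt
Cnn2 (chr10:79988519-79988578, plus strand): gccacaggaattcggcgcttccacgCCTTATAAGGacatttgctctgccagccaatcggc
Myl6 (chr10:128493025-128493084, minus strand): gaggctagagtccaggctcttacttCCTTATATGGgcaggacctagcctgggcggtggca
Actg1 (chr11:120348551-120348610, minus strand): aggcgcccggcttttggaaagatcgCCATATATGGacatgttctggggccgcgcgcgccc
Vil1 and Myl6 held the same 10 letters, at positions -73 and -50 from the start. A match of letters is a description and not evidence that a factor was bound.

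Summed over the 49 genes, the share of a library's counts was 0.95% ± 0.0344 for WT, 1.17% ± 0.0163 for DD and 1.04% ± 0.0811 for DD+rDKK3 (mean ± SD over the 2 libraries of a group). As summed CPM the level was 10440 ± 1520 CPM for WT, 11100 ± 318 CPM for DD and 10050 ± 559 CPM for DD+rDKK3 (SD, n = 2), so that WT and DD+rDKK3 stood in the other order on this scale and WT spanned the other groups. Per kilobase of exon, the highest level belonged to the cytoplasmic actins Actb (539 CPM per kb, mean of the 6 libraries) and Actg1 (347 CPM per kb). They were followed by the essential myosin light chain Myl6 (185 CPM per kb), cofilin Cfl1 (157 CPM per kb), the Arp2/3 subunit Arpc3 (154 CPM per kb), profilin Pfn1 (146 CPM per kb) and the transgelin Tagln2 (140 CPM per kb). Genes known best from smooth muscle were among the lowest, with Cnn1 at 0.059, Myl9 at 0.247 and Tagln at 3.33 CPM per kb. Myh10 (1.639), Myl12b (2.065), Pdlim7 (2.785) and Tpm2 (2.837 CPM per kb) lay between Myl9 and Tagln. In some families 1 form led in every library. Ezr made up 60.6% to 71.1% of the ERM level per kb, Tagln2 96.0% to 98.8% of the transgelins, and Myl12a 86.8% to 88.9% of the regulatory light chains. Among the heavy chains, Myh9 took 76.0% to 79.2% of the level per kb summed with Myh10 and Myh14. The alpha-actinins and the ARPC1 pair had no constant leader, with Actn1 at 41.7% to 54.1% and Arpc1a at 42.9% to 53.2%. Myl12a and Myl12b are near copies, as are the actins and their pseudogenes, so the split of reads between them is uncertain.

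**Figure D1:**
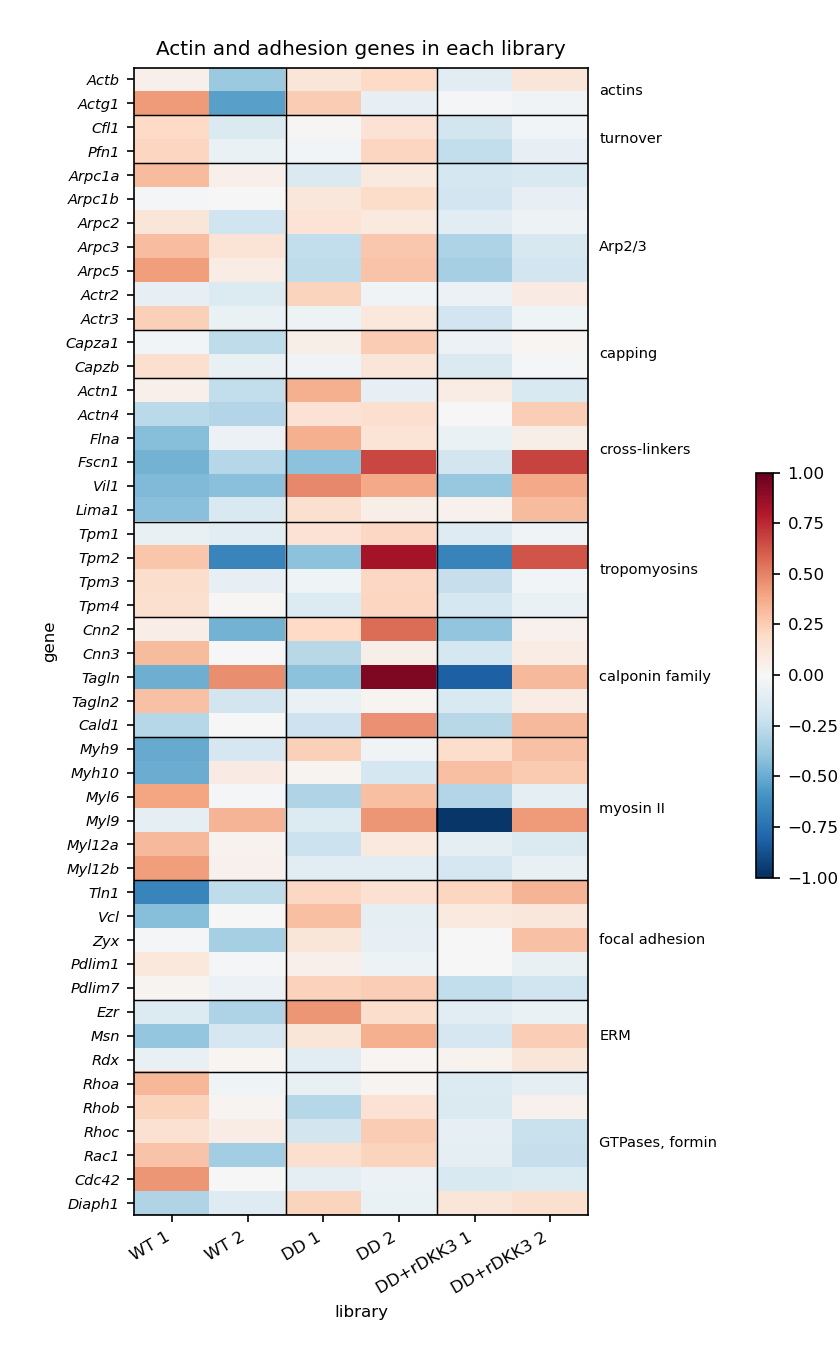
Levels of the 48 tested genes (rows, ordered by role) in the 6 libraries (columns), as log2 CPM minus the gene's mean over the 6 libraries; the colour scale ends at -1 and 1. WT 1 holds the highest value of 18 genes (37.5%, against 27.9% of all genes tested) and DD 2 of 14. DD+rDKK3 1 holds the lowest value of 18 genes (37.5%, against 10.7%).

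The mean of the 48 genes, taken as log2 CPM centred on the 6 libraries, was 0.0083 and -0.11 for WT, 0.0131 and 0.18 for DD and -0.15 and 0.07 for DD+rDKK3. Both DD libraries lay above both WT libraries, but the nearest of them, WT 1 and DD 1, were nearly equal beside the pooled SD within groups of 0.122, and DD+rDKK3 overlapped both other groups. Libraries of 1 group differed by a median of 0.295 (log2) per gene for WT, 0.238 for DD and 0.139 for DD+rDKK3. WT 1 had the highest value of 18 genes (37.5%, against 27.9% of all genes tested) and the lowest value of 11 (22.9%, against 30.5%). WT 2 had the highest of none and the lowest of 12. DD+rDKK3 1 had the lowest value of 18 genes (37.5%, against 10.7% of all genes tested).

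In DD against WT, none of the 48 genes was called at an adjusted p under 0.05 (edgeR's quasi-likelihood F-test, Benjamini-Hochberg adjusted over all genes tested), against 0.0407% of all genes. DESeq2 and limma-voom called none of them either. At an unadjusted p under 0.05, 7 genes were higher in DD and none was lower, which was 14.6% of the 48 against 4.27% of all genes higher, 3.99% lower and 8.26% in either direction. These were Vil1, Tln1, Ezr, Msn, Actn4, Flna and Cnn2. The median log2 fold change of the 48 genes was 0.15, against 0.02 over all genes tested, and 31 of the 48 lay above 0 (64.6%, against 51.7% of all genes). Both DD libraries lay above both WT libraries for 16 genes (33.3%, against 18.1% of all genes), and below both for Cdc42 and Myl12b (4.17%, against 19.7%), so that 37.5% of the 48 were separated in either direction against 37.8% of all genes. The median depended on DD 2 and on WT 2. Without DD 2 it was -0.01 (0.0002 over all genes) and 24 of 48 genes lay above 0 (against 50% of all genes). Without WT 2 it was 0.052 (0.0526 over all genes) and 27 of 48 genes lay above 0 (against 53.6%). Without any other library it lay between 0.155 and 0.1837.

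In DD+rDKK3 against DD, again none of the 48 genes was called (edgeR's quasi-likelihood F-test, Benjamini-Hochberg adjusted, against 0% of all genes), and none was called by DESeq2 or limma-voom. At an unadjusted p under 0.05, 1 gene was lower, Pdlim7 (2.08%, against 1.38% of all genes lower), and none was higher (against 0.597%, or 1.98% in either direction). DESeq2 gave 4 genes and limma-voom 2 genes at that level. The median log2 fold change was -0.15, against -0.0028 over all genes, and 10 of 48 genes lay above 0 (20.8%, against 49.5%). Both DD+rDKK3 libraries lay below both DD libraries for 16 genes (33.3%, against 14.4%) and above both for Myh10, Rdx and Tln1 (6.25%, against 15.1%), and 29.5% of all genes were separated in either direction. Without DD 2 the median was -0.04 and 19 genes lay above 0.

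In DD+rDKK3 against WT, none was called (edgeR's quasi-likelihood F-test, Benjamini-Hochberg adjusted, against 0.0475% of all genes), whereas DESeq2 called 1 gene, Tln1, and limma-voom none. At an unadjusted p under 0.05, Tln1, Myh9, Lima1 and Actn4 were higher (8.33%, against 7.34% of all genes) and none was lower (against 8%, or 15.3% in either direction). The median log2 fold change was -0.06, and 22 of 48 genes lay above 0 (45.8%, against 51.6%). The 2 groups did not overlap for 13 genes that were higher (27.1%, against 27.9%) and for 13 that were lower (27.1%, against 27.1%), close to the shares of all genes, of which 55% were separated in either direction. The 3 comparisons share libraries, so that a DD library that is high for a gene raises the first and lowers the second. The DD libraries lay above all 4 other libraries for 9 genes, Actb, Arpc1b, Capza1, Cnn2, Ezr, Flna, Pdlim7, Tpm1 and Vil1 (18.8%, against 4.03% of all genes), and below all 4 for none (against 3.66%).

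**Figure D2:**
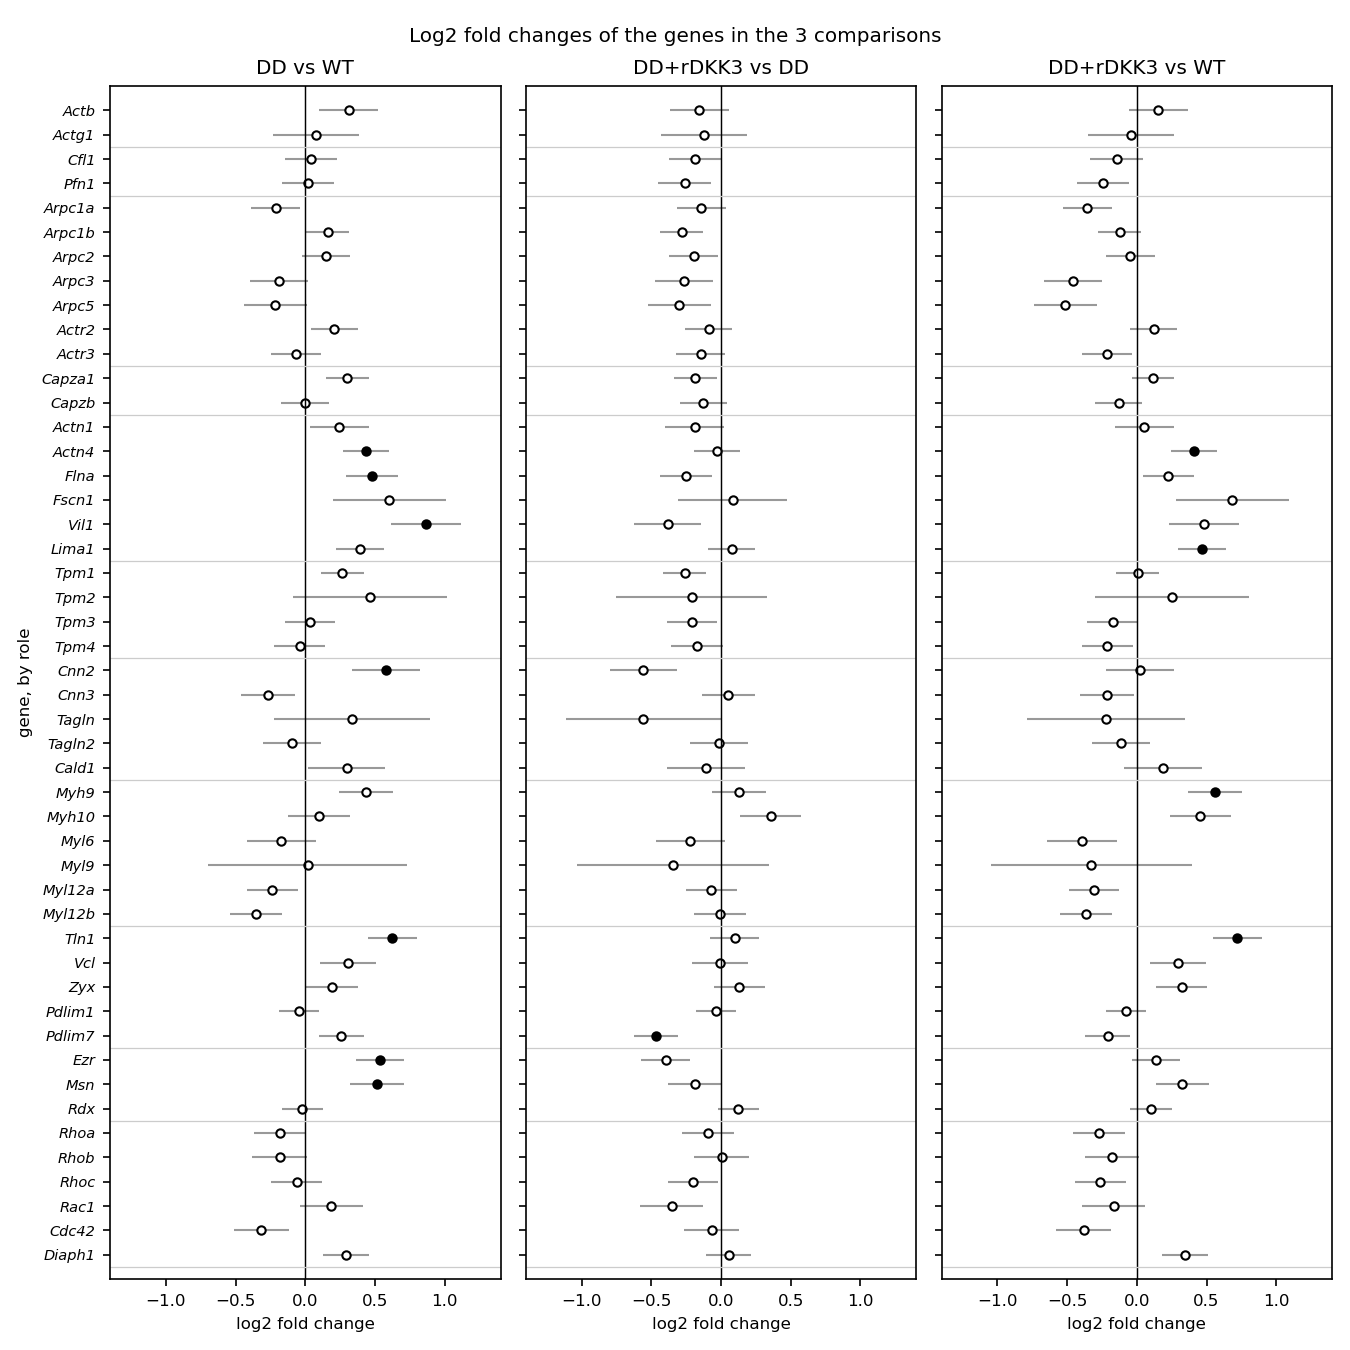
Log2 fold changes (points) with their standard errors (bars) of the 48 tested genes, ordered by role, in the 3 comparisons; filled points have an unadjusted p under 0.05. In DD against WT the filled points all lie on the positive side, from 0.44 for Actn4 to 0.87 for Vil1, and in DD+rDKK3 against DD the filled point is Pdlim7 at -0.47.

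Both cytoplasmic actins, which build the filaments themselves, differed little between the groups beyond the spread of the libraries. Actb had 1210 and 904 CPM in WT, 1275 and 1347 CPM in DD and 1082 and 1272 CPM in DD+rDKK3. Actg1 had 1053 and 539 CPM in WT, 939 and 742 CPM in DD and 780 and 765 CPM in DD+rDKK3. WT 1 was the highest library for Actg1 and WT 2 the lowest, so the WT range enclosed every other library, while for Actb both DD libraries lay just above the others. The share of Actb in the level per kb of both actins was 54.9% and 63.9% for WT, 59.0% and 65.8% for DD and 59.5% and 63.7% for DD+rDKK3, which put the libraries numbered 1 below those numbered 2 in each group. The monomer-binding genes Cfl1 (cofilin, which severs filaments) and Pfn1 (profilin, which loads monomers onto growing ends) were close to equal in DD and WT, with log2 fold changes of 0.04 ± 0.19 and 0.02 ± 0.19 (SE). Both lay lower in each DD+rDKK3 library than in each DD library, by -0.18 ± 0.19 and -0.26 ± 0.19, differences of about the size of their errors.

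The 7 Arp2/3 subunits did not share a direction in DD against WT, where 3 of 7 log2 fold changes lay above 0, between -0.21 and 0.21. With rDKK3 added to DD, all 7 lay below 0, from -0.09 for Actr2 to -0.30 for Arpc5, and the groups did not overlap for Arpc1a, Arpc1b and Arpc2. In that comparison 20.8% of the 48 genes lay above 0, against 49.5% of all genes. Lower without overlap were 33.3% of the 48, against 14.4% of all genes. The actin-related subunits Actr2 and Actr3, which form the start of a branch, gave 0.21 ± 0.17 and -0.07 ± 0.18 in DD against WT. None of these 7 subunits reached an unadjusted p under 0.05 in any comparison. Arpc5 had 341 and 269 CPM in WT, 214 and 312 CPM in DD and 203 and 224 CPM in DD+rDKK3. Its WT libraries lay above both treated libraries, with DD spread across that range, and the log2 fold change of DD+rDKK3 against WT was -0.51 ± 0.23 (SE, unadjusted p = 0.0551, adjusted p = 0.331 in edgeR) and -0.31 without WT 1. Arpc3 had 249 and 220 CPM in WT, 170 and 242 CPM in DD and 162 and 180 CPM in DD+rDKK3, and showed the same order of groups (-0.46 ± 0.21, adjusted p = 0.334). Arpc1a and Arpc1b encode alternative forms of 1 subunit, which binds the activators of the complex. Arpc1a had 274 and 228 CPM in WT, 198 and 235 CPM in DD and 195 and 198 CPM in DD+rDKK3. Arpc1b had 228 and 230 CPM in WT, 250 and 262 CPM in DD and 203 and 218 CPM in DD+rDKK3. Arpc1b was thus highest in DD, without overlap, and Arpc1a highest in WT 1, and the share of Arpc1b in the level per kb of the pair was 46.8% and 51.7% for WT, 57.1% and 54.1% for DD and 52.4% and 53.9% for DD+rDKK3. Capping protein showed log2 fold changes of 0.30 ± 0.15 for Capza1 and -0.004 ± 0.17 for Capzb in DD against WT, and of -0.18 ± 0.15 and -0.13 ± 0.17 in DD+rDKK3 against DD.

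The cross-linkers were the role group with the most genes higher in DD than in WT. All 6 log2 fold changes lay above 0 (against 51.7% of all genes), with a median of 0.46, and the groups did not overlap for Actn4, Flna, Vil1 and Lima1 (against 18.1% of all genes higher without overlap). Of the 6, all but Fscn1 have transcripts over 4000 bases, a class in which all genes had a median of 0.18. Vil1 encodes villin, which bundles and severs actin in the microvilli of epithelia (ENSMUSG00000026175.13, chromosome 1, 74448535 to 74474718, plus strand, GRCm39). It had 15.0 and 15.3 CPM in WT, 28.6 and 26.7 CPM in DD and 15.7 and 26.7 CPM in DD+rDKK3. Both WT libraries and DD+rDKK3 1 were low, and the other 3 libraries were high, so that only 1 of the treated cultures lay near WT. The level in DD was 1.82-fold that in WT (log2 fold change 0.87 ± 0.25, SE; unadjusted p = 0.00889, adjusted p = 0.586 in edgeR). DD+rDKK3 against DD gave -0.38 ± 0.24 (adjusted p = 0.9999), and this value was -0.82 without DD+rDKK3 2 and -0.07 without DD+rDKK3 1. The values of DD 2 and DD+rDKK3 2 were equal at 3 digits. Actn4, a non-muscle alpha-actinin of stress fibres and adhesions, had 269 and 265 CPM in WT, 357 and 365 CPM in DD and 325 and 384 CPM in DD+rDKK3. Every library of both Dkk3-null groups lay above both WT libraries, and the log2 fold change was 0.44 ± 0.17 in DD and 0.41 ± 0.17 in DD+rDKK3 against WT (adjusted p = 0.586 and 0.321). Flna, the large filamin that joins filaments at right angles, had 126 and 163 CPM in WT, 217 and 186 CPM in DD and 162 and 176 CPM in DD+rDKK3. Lima1, which stabilises bundles, had 64.0 and 77.0 CPM in WT, 95.6 and 89.4 CPM in DD and 88.6 and 107 CPM in DD+rDKK3. Actn1, the other alpha-actinin, had 317 and 257 CPM in WT, 391 and 289 CPM in DD and 321 and 275 CPM in DD+rDKK3, and overlapped in every comparison. The DD libraries lay above all others for Flna, while for Lima1 both Dkk3-null groups lay above WT (DD+rDKK3 against WT 0.47 ± 0.17, adjusted p = 0.321).

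**Figure D3:**
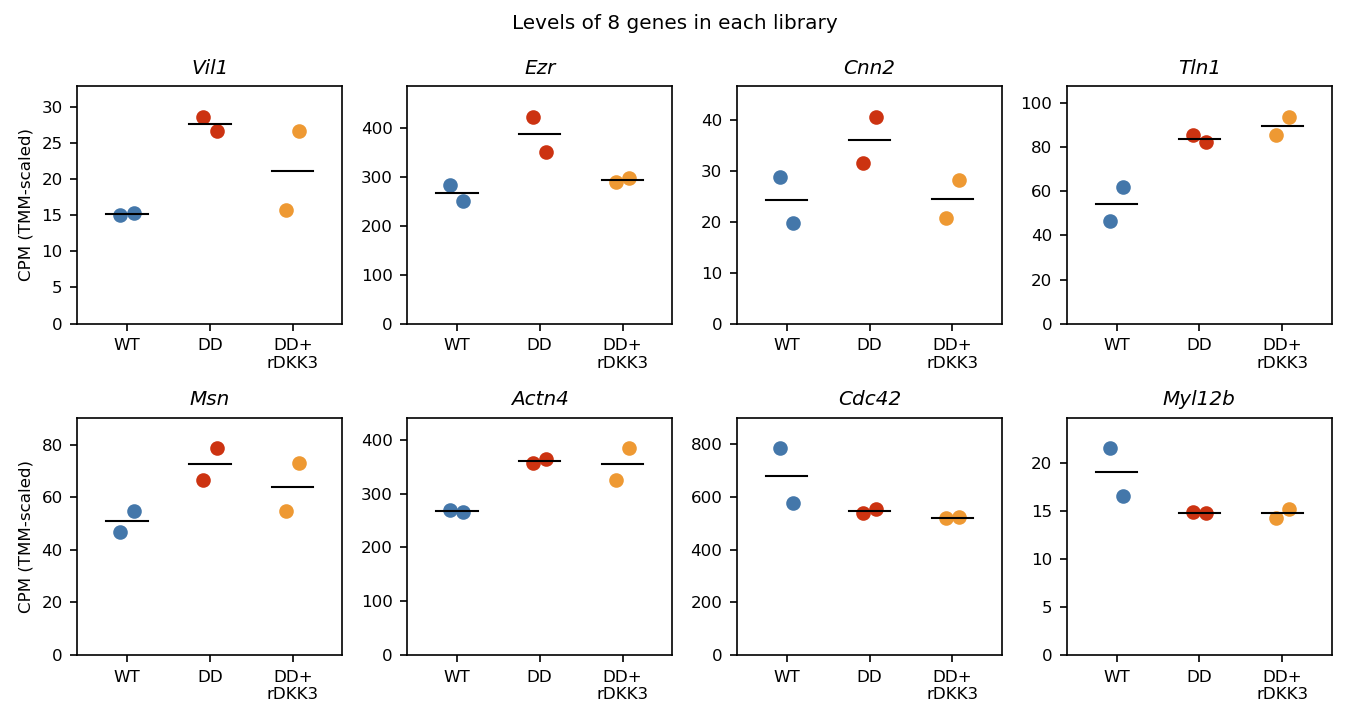
Level in CPM (vertical axis, from 0) of 8 genes in the 2 libraries of WT, DD and DD+rDKK3 (points) with the group mean (line). Ezr and Cnn2 are highest in both DD libraries, Tln1 and Actn4 are higher in all 4 Dkk3-null libraries than in WT, and Cdc42 and Myl12b are highest in the WT libraries.

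The membrane linkers divided within the family. Ezr encodes ezrin, the linker of the apical microvilli of acinar and ductal cells (ENSMUSG00000052397.9, chromosome 17, 7005440 to 7050183, minus strand, GRCm39). It had 282 and 251 CPM in WT, 422 and 351 CPM in DD and 289 and 297 CPM in DD+rDKK3. Both DD libraries were high, and the treated libraries lay just above WT. DD exceeded WT by 0.54 ± 0.17 (log2, SE; unadjusted p = 0.0163, adjusted p = 0.586 in edgeR), and DD+rDKK3 differed from DD by -0.40 ± 0.17 (unadjusted p = 0.0537, adjusted p = 0.9999). Leaving out any 1 library kept both signs, with ranges of 0.42 to 0.66 and of -0.52 to -0.28. Msn, the form known from leukocytes and mesenchyme, had 46.9 and 54.7 CPM in WT, 66.7 and 78.5 CPM in DD and 54.7 and 72.9 CPM in DD+rDKK3. DD 2 and DD+rDKK3 2, the libraries rich in fibroblast markers, were its highest values, and the part of those cells in the difference of 0.51 ± 0.19 between DD and WT (adjusted p = 0.586) was not tested. Without both of these libraries Msn differed between DD and WT by 0.39. Rdx had 91.2 and 97.8 CPM in WT, 88.9 and 97.4 CPM in DD and 98.4 and 104 CPM in DD+rDKK3, and its DD to WT difference was -0.02 ± 0.15.

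Among the adhesion genes, Tln1 had the smallest p of the 48 genes in both comparisons with WT. It encodes talin, which activates integrins and links them to actin (ENSMUSG00000028465.17, chromosome 4, 43531519 to 43562691, minus strand, GRCm39). It had 46.8 and 62.1 CPM in WT, 85.6 and 82.4 CPM in DD and 85.9 and 93.8 CPM in DD+rDKK3. Every Dkk3-null library, treated or not, lay above both WT libraries. The level was 1.54-fold that of WT in DD (log2 fold change 0.62 ± 0.18, SE; unadjusted p = 0.00826, adjusted p = 0.586 in edgeR) and 1.65-fold in DD+rDKK3 (0.72 ± 0.18, unadjusted p = 0.00387, adjusted p = 0.321), and the treated and untreated null cultures differed by 0.10 ± 0.17. DESeq2 gave an adjusted p of 0.0293 for DD+rDKK3 against WT. Vcl (vinculin, which binds talin under tension) had 49.9 and 67.4 CPM in WT, 82.5 and 62.9 CPM in DD and 71.8 and 72.7 CPM in DD+rDKK3. Zyx (zyxin, which marks strained stress fibres) had 87.7 and 70.5 CPM in WT, 96.5 and 83.9 CPM in DD and 88.9 and 109 CPM in DD+rDKK3. For both genes DD overlapped WT. The PDZ and LIM domain genes differed from the others. Pdlim7, an adaptor of actin filaments, had 16.2 and 15.2 CPM in WT, 18.7 and 18.9 CPM in DD and 13.4 and 13.8 CPM in DD+rDKK3. The treated libraries were the lowest of all and the DD libraries the highest, with tight pairs in each group. The log2 fold change of DD+rDKK3 against DD was -0.47 ± 0.16 (SE, unadjusted p = 0.0202, adjusted p = 0.9999 in edgeR), between -0.50 and -0.46 when any 1 library was left out. Pdlim1 differed by at most 0.08 in the 3 comparisons.

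The tropomyosins and the calponin family held both abundant epithelial genes and genes near the limit of detection. Tpm1 had 262 and 257 CPM in WT, 305 and 319 CPM in DD and 252 and 269 CPM in DD+rDKK3, so DD was highest without overlap (0.27 ± 0.16 against WT, and -0.26 ± 0.16 for DD+rDKK3 against DD). Tpm3 and Tpm4 gave 0.04 ± 0.18 and -0.04 ± 0.18 for DD against WT. Cnn2 encodes a calponin of non-muscle cells, whose members bind actin and tropomyosin and restrain myosin (ENSMUSG00000004665.11, chromosome 10, 79824418 to 79831896, plus strand, GRCm39). It had 28.8 and 19.8 CPM in WT, 31.7 and 40.7 CPM in DD and 20.9 and 28.3 CPM in DD+rDKK3. Both DD libraries were high, and the treated libraries lay within the WT range. The log2 fold changes were 0.58 ± 0.24 for DD against WT (SE, unadjusted p = 0.0462, adjusted p = 0.586 in edgeR) and -0.56 ± 0.24 for DD+rDKK3 against DD (unadjusted p = 0.0507, adjusted p = 0.9999). Leaving out 1 library at a time gave 0.33 (without WT 2) to 0.88 (without WT 1) for the first and -0.80 (without DD+rDKK3 2) to -0.36 (without DD 2) for the second. Cnn3, the third calponin, had 108 and 87.3 CPM in WT, 71.8 and 90.4 CPM in DD and 76.8 and 91.4 CPM in DD+rDKK3, with a log2 fold change of -0.27 ± 0.19 for DD against WT, and of -0.09 without DD 1. The share of Cnn2 in the calponin level per kb was 20% and 17.5% for WT, 29.3% and 29.7% for DD and 20.3% and 22.5% for DD+rDKK3, without overlap between DD and the other groups.

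Tagln, Tpm2, Myl9, Fscn1 and Cald1, known from contractile or motile stromal cells, varied more between the libraries of each Dkk3-null group than between the group means. Tagln had 3.54 and 6.95 CPM in WT, 3.74 and 9.70 CPM in DD and 2.80 and 6.29 CPM in DD+rDKK3. Tpm2, a tropomyosin of muscle and fibroblasts, had 11.7 and 6.04 CPM in WT, 7.19 and 17.2 CPM in DD and 6.02 and 14.9 CPM in DD+rDKK3. Fscn1 (fascin, which bundles filaments in protrusions) had 8.06 and 9.20 CPM in WT, 8.42 and 17.9 CPM in DD and 9.88 and 18.0 CPM in DD+rDKK3. DD 2 and DD+rDKK3 2 held the highest values of 6 genes, Actn4, Cald1, Fscn1, Msn, Myl9 and Tpm2 (12.5% of the 48, against 10.5% of all genes tested). The same libraries carried 1023 and 1147 CPM of fibroblast markers, and all 14 of those markers had a log2 fold change above 0 in DD against WT (1.26 to 2.83). Macrophage markers summed to 126 and 58.5 CPM in WT, 69.1 and 245 CPM in DD and 84.9 and 189 CPM in DD+rDKK3. Smooth muscle and pericyte markers summed to between 25.9 and 43.2 CPM, with Actg2 and Kcnmb1 at 0 to 2 counts in every library. Among them, Acta2 had 1.999 and 2.80 CPM in DD 2 and DD+rDKK3 2 against 0.053 to 0.843 CPM in the other 4 libraries. Cspg4 had 2.41 and 5.43 CPM against 0.491 to 1.23 CPM. Rgs5, Des and Mcam were instead highest in WT 2 (10.18, 2.318 and 15.03 CPM), and Notch3 was lowest in DD+rDKK3 2 (3.55 CPM). The whole list summed to 41.3 CPM in WT 2, 43.2 CPM in DD 2 and 40.3 CPM in DD+rDKK3 2. The part of stromal cells in the values of Tagln, Tpm2, Myl9, Fscn1 and Cald1 was not tested. Cnn1 and Myl9 were at 0.05 to 0.21 and 0.21 to 0.76 CPM, where 3 counts correspond to 0.142 to 0.295 CPM, so no difference was detectable at this depth.

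**Figure D4:**
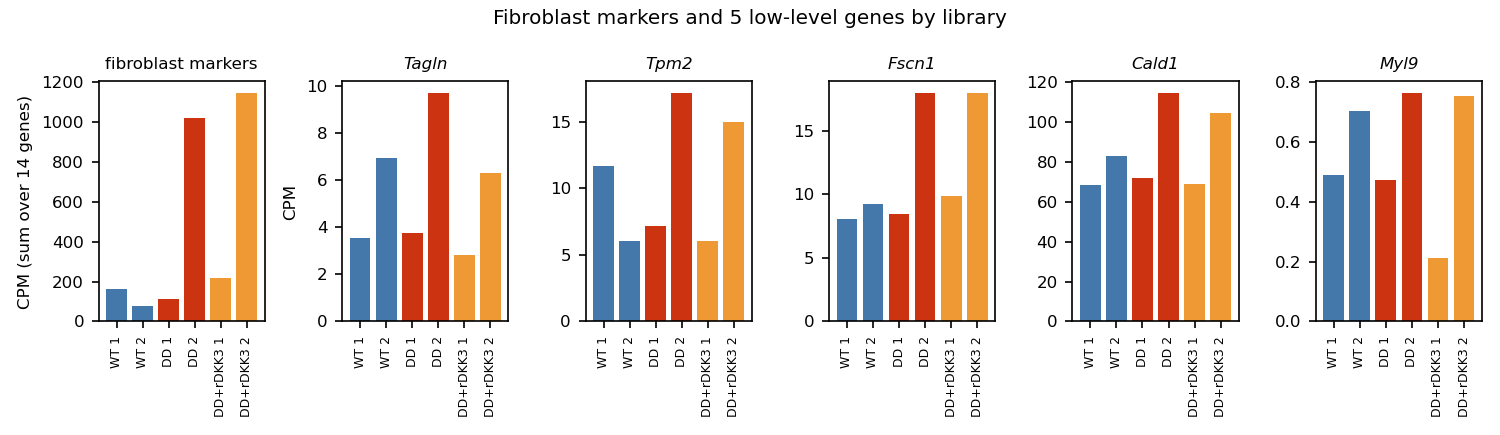
Summed level of 14 fibroblast and stellate markers (left panel) and level of 5 genes known from contractile or motile stromal cells, in CPM (bars, from 0) in each of the 6 libraries, coloured by group. DD 2 and DD+rDKK3 2 are the highest libraries in the left panel (1023 and 1147 CPM) and for Tpm2, Fscn1, Cald1 and Myl9, while for Tagln the order is DD 2, WT 2 and DD+rDKK3 2.

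The myosin II genes split by chain, and the heavy chains also had the longer transcripts. These were 7439 bases for Myh9 and 7803 for Myh10, against 696 to 3657 for the light chains. With the length trend of each library removed (below), DD against WT gave 0.22 for Myh9 and -0.11 for Myh10. That fit gave 0.02 for Myl6, 0.17 for Myl9, -0.27 for Myl12a and -0.27 for Myl12b. The values that follow are without that step. Myh9, the main heavy chain, had 269 and 340 CPM in WT, 449 and 373 CPM in DD and 433 and 468 CPM in DD+rDKK3. All Dkk3-null libraries lay above WT, by 0.43 ± 0.19 in DD and by 0.56 ± 0.19 in DD+rDKK3 (log2, SE; adjusted p = 0.586 and 0.321 in edgeR). Myh10, the minor heavy chain, had 11.1 and 16.6 CPM in WT, 15.95 and 13.8 CPM in DD and 19.3 and 18.8 CPM in DD+rDKK3, and was the gene with the highest log2 fold change in DD+rDKK3 against DD (0.36 ± 0.22, adjusted p = 0.9999). Of the light chains, Myl12b, Myl12a and Myl6 lay below 0 in DD against WT, none of them at an unadjusted p under 0.05 in edgeR, and Myl9, near the limit of detection, was at 0.02 ± 0.71. Myl12b, a regulatory light chain, had 21.5 and 16.6 CPM in WT, 14.9 and 14.8 CPM in DD and 14.3 and 15.2 CPM in DD+rDKK3, a log2 fold change of -0.36 ± 0.19 in both comparisons with WT (adjusted p = 0.586 and 0.362). Without WT 1 these values were -0.14 and -0.15. Myl12a had 186 and 152 CPM in WT, 127 and 158 CPM in DD and 138 and 134 CPM in DD+rDKK3 (-0.24 ± 0.18 for DD against WT, and -0.06 without DD 1). Myl6 had 436 and 327 CPM in WT, 269 and 409 CPM in DD and 271 and 311 CPM in DD+rDKK3, with DD spread over most of the range of the 6 libraries. Myl6 carries the same CArG letters as Vil1, and the log2 fold changes of DD against WT were -0.17 ± 0.25 and 0.87 ± 0.25. Over the 7 genes with the element, these values ran from -0.17 to 0.87, and 6 of 7 lay above 0. Of the 48 genes, 64.6% lay above 0, and of all genes tested 51.7%. Myl6 lay below 0 by less than its error, and Myl9 (0.02 ± 0.71) and Actg1 (0.08 ± 0.31) lay above 0 by less than theirs. A part of the element in these values was not tested.

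Of the small GTPases that steer filament assembly, Cdc42 had 784 and 576 CPM in WT, 539 and 554 CPM in DD and 519 and 524 CPM in DD+rDKK3. WT was highest without overlap, although WT 2 lay much nearer to the null libraries than to WT 1, and the log2 fold change of DD against WT was -0.32 ± 0.20 with both WT libraries and -0.06 without WT 1. Rhoa, which drives contraction, had 522 and 404 CPM in WT, 394 and 423 CPM in DD and 377 and 389 CPM in DD+rDKK3. Rac1, which drives branched networks at the cell edge, had 386 and 249 CPM in WT, 353 and 370 CPM in DD and 296 and 270 CPM in DD+rDKK3, so that WT 1 and WT 2 held its extremes. Diaph1, a formin that extends unbranched filaments, had 69.6 and 78.6 CPM in WT, 99.8 and 81.8 CPM in DD and 93.0 and 95.7 CPM in DD+rDKK3. It was higher in all 4 null libraries than in WT (DD+rDKK3 against WT 0.35 ± 0.16, adjusted p = 0.340 in edgeR). Rhob and Rhoc had log2 fold changes of -0.18 ± 0.20 and -0.06 ± 0.18 in DD against WT.

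Transcript length moved with these differences. In both comparisons with WT, genes with long transcripts, such as Tln1, Myh9 and Flna, lay mostly above 0. Of the 12 genes up to 2000 bases, such as Arpc3 and Myl6, 5 lay above 0 in DD against WT and 1 in DD+rDKK3 against WT. Across the 48 genes, the Spearman correlation between transcript length and log2 fold change was 0.554 for DD against WT, 0.367 for DD+rDKK3 against DD and 0.729 for DD+rDKK3 against WT. Across 14683 genes with a length, it was 0.369, 0.251 and 0.441. These are descriptions over genes that share libraries. In DD against WT, the 14 genes with transcripts over 4000 bases had a median log2 fold change of 0.35 (13 of 14 above 0), where all 5227 genes of that length had 0.18. The 12 genes up to 2000 bases had a median of -0.03, where all 4242 such genes had -0.18. For treated against untreated null cultures, the medians of the 48 genes lay below those of all genes in each of the 3 length classes, at -0.21, -0.13 and -0.02 against -0.08, -0.02 and 0.07. Fitted with the length trend of each library removed, a step chosen after seeing the data, DD against WT gave a median of 0.16 and 37 of 48 genes above 0, and DD+rDKK3 against DD a median of -0.12 and 10 of 48 above 0. With that step Tln1 went from 0.62 to 0.39 in DD against WT and Myh9 from 0.56 to 0.24 in DD+rDKK3 against WT, whereas Ezr went from 0.54 to 0.53 and Cnn2 from 0.58 to 0.64 in DD against WT. Flna went from 0.48 to 0.19 in DD against WT, where its unadjusted p in edgeR was 0.1998 with the trend removed. In DD+rDKK3 against WT, Diaph1 went from 0.35 to 0.14 and Arpc3 from -0.46 to -0.18. RNA integrity of the libraries was not analysed here.

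**Figure D5:**
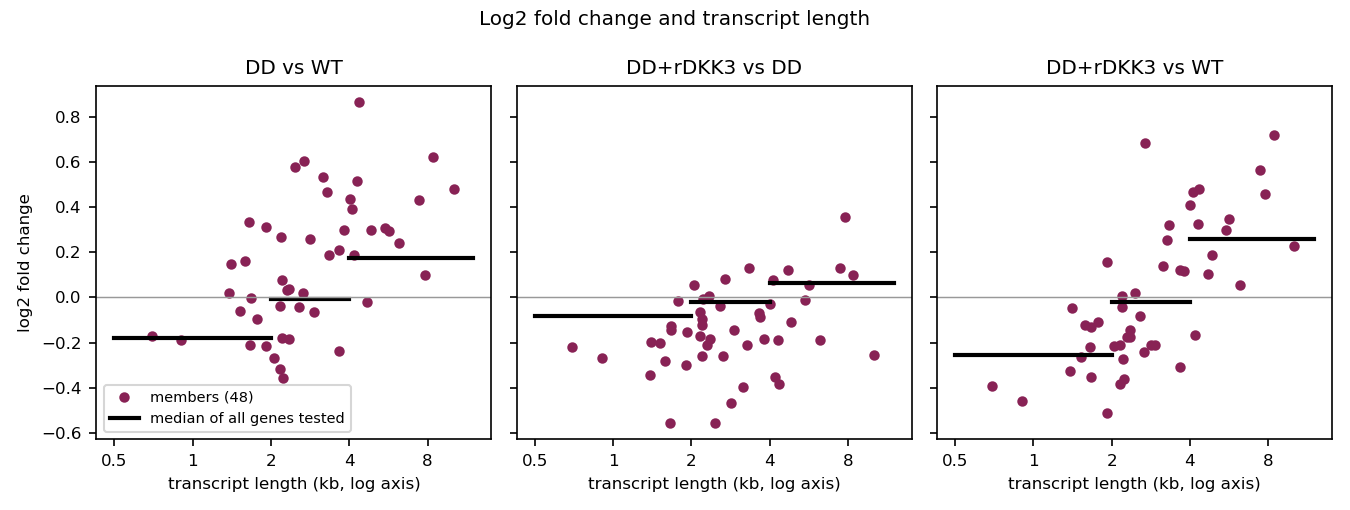
Log2 fold change (vertical axis) against length of the canonical transcript in kb (horizontal log axis) for the 48 genes (points) in the 3 comparisons, with the median of all genes tested in 3 length classes (black lines). The black lines climb from -0.18 to 0.18 in DD against WT and from -0.26 to 0.26 in DD+rDKK3 against WT, and the genes with long transcripts lie highest.

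A further 86 tested genes of the same pathways were chosen by name. None was called in any of the 3 comparisons (edgeR's quasi-likelihood F-test, Benjamini-Hochberg adjusted). At an unadjusted p under 0.05, 9 were higher and none lower in DD against WT (against 4.27% and 3.99% of all genes), none was higher and 3 were lower in DD+rDKK3 against DD (against 0.597% and 1.38%), and 12 were higher and 3 lower in DD+rDKK3 against WT (against 7.34% and 8%). Their median log2 fold changes were 0.23, -0.05 and 0.21, against 0.02, -0.0028 and 0.02 over all genes. Across these 86 genes, transcript length and log2 fold change had Spearman correlations of 0.15, 0.595 and 0.45 in the same order. Ccn2, a secreted target of SRF and of YAP, had 31.9 and 37.0 CPM in WT, 63.9 and 52.7 CPM in DD and 44.3 and 41.3 CPM in DD+rDKK3. Gelsolin (Gsn), which severs and caps filaments, had 68.8 and 65.7 CPM in WT, 104 and 136 CPM in DD and 80.4 and 100.1 CPM in DD+rDKK3. Ccn2 and Gsn were 0.76 ± 0.16 and 0.83 ± 0.19 higher in DD than in WT (adjusted p = 0.442 and 0.512), and -0.45 ± 0.16 and -0.41 ± 0.19 in DD+rDKK3 against DD (adjusted p = 0.9999 each).

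On the lower side of the same list were the Arp2/3 subunit Arpc5l, the myosin phosphatase subunit Ppp1cb and the microvillar bundler Espn in DD against WT, at -0.36 ± 0.17, -0.38 ± 0.19 and -0.64 ± 0.38. With rDKK3 added to DD, profilin 2 (Pfn2) and plastin 3 (Pls3), a filament bundler, were at -0.56 ± 0.22 and -0.33 ± 0.14, and the cofilin kinase Limk2, the cofilin phosphatase Ssh1 and Cdc42ep1 at 0.29 ± 0.14, 0.37 ± 0.19 and 0.31 ± 0.17. Against WT, the treated cultures had the heavy chain Myh14 (0.77 ± 0.19) and the integrin-linked adaptor Parva (0.44 ± 0.14) on the higher side. The monomer-sequestering Tmsb10 was on the lower side (-1.08 ± 0.41), as were Pfn2 (-0.79 ± 0.22) and Arpc5l (-0.64 ± 0.17), with an adjusted p of 0.321 in edgeR for each. Of the genes named in these comparisons with DD+rDKK3, those on the higher side had the longer transcripts. These were 6628 bases for Myh14, 4507 for Parva and 4408 to 8456 for Limk2, Ssh1 and Cdc42ep1. On the lower side were 788 for Tmsb10, 1381 for Arpc5l, 2361 for Pfn2 and 3149 for Pls3. A part of length in these values was not tested. Tmsb10 had 1056 and 467 CPM in WT, 365 and 676 CPM in DD and 357 and 365 CPM in DD+rDKK3, so the lowest values came from 3 of the 4 null libraries and the highest from WT 1.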

How the data were processed

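The deposited table holds raw counts of genes in each library, made by the authors from strand-specific paired-end reads with STAR 2.7.9a on GRCm39 and a basic GENCODE annotation. Per their methods, reads over exons were counted in union mode without secondary alignments and summed per gene, and DESeq2 1.38.0 was used for their own tests. Of 57045 rows, 92 were spike-ins with 0 counts and were left out.

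From the counts, 14738 genes passed filterByExpr (minimum count 10, minimum total 15) in edgeR 4.0.16 (R 4.3.3). They were scaled by TMM and fitted with the quasi-likelihood model over 6 libraries and 3 groups, with 3 residual degrees of freedom and Benjamini-Hochberg adjustment over all genes tested. The model was run on simulated data with a lower spread than these data and planted changes larger than those of the genes studied. That run does not show the power to find changes of the size seen here. All p-values are two-sided. Log2 CPM used a prior count of 2. DESeq2 1.42.0, limma-voom (limma 3.58.1), other scalings and filters, replicate blocks and left-out libraries were alternatives. Lengths came from a later GENCODE release on GRCm39. Levels per kb used the union of basic exons, and the length trend used the canonical transcript. The floor is the CPM of 3 counts and covers counting error only.

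The members and lists were chosen with earlier results of these data known. Statistics were given, though not all in full, for up to 5 members per direction and comparison with the smallest unadjusted p. They were also given for members whose DD libraries lay outside both other groups by a log2 difference of 0.3 or more in both comparisons, and for up to 3 other pathway genes per direction. Values of further members and of Ccn1 were chosen after they were seen. Protein identity between family members was not analysed here. The result of 1 pathway gene is not reported here.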

Additional observations from a re-analysis of the deposited data

How the results depend on the processing

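Each group had 2 libraries, and 44 of the 49 members had at least 100 counts in every library, so depth limits the others most. Adjusted calls were 0 of 48 members (0 of 47 with a minimum count of 50) in all 3 comparisons under scaling by library size alone, DESeq2 size factors, limma-voom, a minimum count of 50, both replicate blocks, removal of the length trend and each left-out library (0 to 0). The exceptions were DESeq2, with 1 call in DD+rDKK3 against WT, and the fit with no low-count filter, with 2 calls in DD against WT (Tln1, Vil1) and 1 in DD+rDKK3 against WT (Tln1). DESeq2 called 61 of all 14738 genes there, and the fit with no filter 528 and 788 of 26506 genes. The cause was not tested.

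Library-size scaling gave a median over all genes of 0.22 for DD against WT and 0.18 for DD+rDKK3 against WT, and over the members of 0.37 and 0.11. It gave 17, 3 and 7 members at an unadjusted p under 0.05 in the comparisons of DD with WT, of DD+rDKK3 with DD and of DD+rDKK3 with WT, against 1574, 270 and 2015 of all 14738 genes, and turned Arpc1a to 0.0039 in DD against WT. No low-count filter gave 11, 2 and 10 members at that level. In DD+rDKK3 against DD the count was 4 with DESeq2, 2 with limma-voom, 2 with a minimum count of 50 and 3 without the length trend. In DD+rDKK3 against WT it was 8 with DESeq2 (4 higher and 4 lower) and 2 without the length trend, a step that also turned Tln1 to -0.0288 in DD+rDKK3 against DD.

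Leaving out 1 library at a time moved the median from -0.0084 to 0.1837 in DD against WT, from -0.2419 to -0.0421 in DD+rDKK3 against DD and from -0.1535 to 0.0728 in DD+rDKK3 against WT. The counts at an unadjusted p under 0.05 were 5 to 9, 0 to 5 and 1 to 8, and the counts above 0 were 24 to 39, 5 to 19 and 18 to 29. In DD+rDKK3 against DD, Zyx ranged from -0.0276 (without DD+rDKK3 2) to 0.2563. In these fits the lone library is assumed to vary like the other groups. Without both DD 2 and DD+rDKK3 2, the libraries richest in fibroblast markers, DD against WT had a median of -0.0115 and 3 members at an unadjusted p under 0.05, DD+rDKK3 against WT had 1 such member, and in DD+rDKK3 against DD Myh9 turned to -0.0484 and Zyx to -0.1115. Myh9 otherwise ranged from 0.0038 to 0.2495 over the left-out libraries. This setting and the length trend were added after seeing the data.

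Replicate numbers were tried as a block. Deviations of same-numbered libraries correlated over the members at 0.024 for WT and DD, 0.686 for DD and DD+rDKK3 and 0.235 for WT and DD+rDKK3. Over all genes tested these values were -0.387, 0.65 and -0.247. Only 2 numbers exist and the labels do not say which libraries came from 1 animal, so a common source is not known. A replicate block over 6 libraries gave 6 members at an unadjusted p under 0.05 in DD against WT and a median of 0.16. A replicate block within the Dkk3-null libraries gave 4 members and a median of 0.0106 in DD against WT, 2 members in DD+rDKK3 against DD, and 6 members (2 higher and 4 lower) and a median of -0.1631 in DD+rDKK3 against WT. As coded, this block set each null group at the level of its library numbered 1, and WT at the mean of both its libraries. Its comparisons with WT are therefore not block-adjusted comparisons of group means. Counts of groups without overlap were not recomputed with libraries left out, since fewer libraries separate more often.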
